A study of Mus musculus with 6 samples.

Results

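Universal fibroblast markers are genes used to recognise the fibroblasts that are found, with much the same profile, around the vessels and in the connective tissue of many organs. The 10 genes described here, Cd34, Dpt, Pi16, Dpp4, Clec3b, Ly6a, Ly6c1, Mfap5, Fbln1 and Has1, were taken by symbol from a table of 54232 genes, and each matched 1 row. All 10 had reads in each of the 6 libraries, and 8 passed the filter on low counts that left 15376 genes for testing. Clec3b and Ly6c1 did not pass it and are given as counts.

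RNA-seq was performed on primary muscle cells of the mouse oviduct, the tube that carries the embryo to the uterus. Oviducts came from females of 8 to 12 weeks on day 2 of pregnancy after mating with stud males. The 3 WT libraries and the 3 Pbrm1 cKO libraries differed by genotype, and all 6 went through the same digestion, filtering and short plating, 4 hours before and 2 hours after a change of medium. Pbrm1 encodes a subunit of the PBAF chromatin remodeling complex. The study describes the conditional deletion as driven by a Cre placed in the progesterone receptor gene, so deletion follows cells that express that receptor and not muscle or fibroblasts as such. The labels and the study's main text call the controls of these cells WT, whereas the one legend that covers these cells names floxed females. The labels give no strain. That legend names 3 biological replicates, but neither it nor the labels say whether a library was 1 animal or a pool. Every p-value below weighs the group difference against the spread between libraries, which may be in part technical.

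Fibroblasts that carry Pi16, Dpp4 and Clec3b lie mainly in the adventitia of vessels and in fascia and are regarded as a reserve from which more specialised fibroblasts form, while Col15a1-type fibroblasts lie within the tissue. Cd34 and the Ly6 proteins are carried on the surface of such cells, whereas Dpt, Mfap5 and Fbln1 are secreted into the matrix between collagen and elastic fibres. Has1 makes hyaluronan, a long sugar chain that holds water in loose connective tissue.

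Total counts ranged from 15390818 to 18947947 per library, and mitochondrial genes took 7.95% to 8.24% of counts in WT against 6.88% to 7.81% in cKO. A count of 3, taken as the floor of detection, was worth 0.158 to 0.195 CPM (counts relative to the size of the library, here before normalization between libraries), and such limits cover counting error only. Pbrm1 read 170.1, 183.3 and 172.1 normalized CPM in WT and 43.5, 50.7 and 42.7 CPM in cKO, so the cKO mean was 26.0% of WT and each library matched its label. Of the 15376 genes tested, edgeR called 6723 at an adjusted p under 0.05, or 43.7%, with 21.9% higher in cKO and 21.8% lower. The CPM of the groups did not overlap in 53.5% of tested genes. The median log2 difference of tested genes was 0.00 and the median of its absolute value 0.217. Differences are given as cKO against WT throughout.

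Genes of muscle and genes of fibroblasts were both well represented. All 10 smooth muscle markers passed the filter, with Acta2, the actin of smooth muscle, at 1287 CPM in WT, but so did all 16 genes shared by most fibroblasts, with the receptor gene Pdgfra at 747 CPM in WT. Summed over the 10 members, the level ran from 194 to 209 CPM in WT and from 249 to 259 CPM in cKO. These are bulk libraries, so a lower share of cells of a type and less RNA per cell cannot be told apart, here and in every result below.

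The 10 markers did not move alike. Cd34, Mfap5, Ly6a and Fbln1 were higher in cKO, and Dpt, Has1 and Dpp4 were lower. Pi16 was not called, and Clec3b and Ly6c1 were not tested. The 4 members called higher and the 3 called lower stand against shares of 21.9% and 21.8% of all tested genes. The 7 members called in either direction, of 8 tested and 10 listed, stand against 43.7% of tested genes. The same 7 had groups that did not overlap, against 53.5% of tested genes. The members were not drawn at random from the table, so these shares are a description.

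Promoter sequence is shown for 4 of the members that rose or fell. It lets the opposite directions be read beside the DNA upstream of the start. RefSeq promoters (GRCm38.p6) were matched for 7 of the 10 members, and Clec3b, Ly6a and Mfap5 had no entry. The 250 bases before the start are printed for Cd34 and Fbln1, which rose, and for Dpt and Has1, the members that fell by most, 5′ to 3′ along the gene's own strand, in lower case with CG dinucleotides, the sites of DNA methylation, in capitals. For Fbln1 the more upstream of its starts was taken. The starts are those of RefSeq. They differ from the gene spans given below, so the last bases printed for Dpt and Has1, and the last base for Cd34, lie inside those spans.
Cd34, chr1:194938571-194938820, plus strand: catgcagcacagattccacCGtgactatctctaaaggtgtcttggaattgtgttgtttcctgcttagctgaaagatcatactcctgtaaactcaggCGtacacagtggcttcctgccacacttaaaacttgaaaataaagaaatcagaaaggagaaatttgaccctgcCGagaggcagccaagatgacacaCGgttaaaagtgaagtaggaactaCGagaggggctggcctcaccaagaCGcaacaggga
Fbln1, chr15:85205699-85205948, plus strand: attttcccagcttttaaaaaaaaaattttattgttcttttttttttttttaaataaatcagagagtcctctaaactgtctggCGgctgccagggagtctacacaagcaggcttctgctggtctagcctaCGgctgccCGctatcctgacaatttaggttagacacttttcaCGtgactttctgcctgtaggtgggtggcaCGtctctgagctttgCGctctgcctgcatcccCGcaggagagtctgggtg
Dpt, chr1:164796413-164796662, plus strand: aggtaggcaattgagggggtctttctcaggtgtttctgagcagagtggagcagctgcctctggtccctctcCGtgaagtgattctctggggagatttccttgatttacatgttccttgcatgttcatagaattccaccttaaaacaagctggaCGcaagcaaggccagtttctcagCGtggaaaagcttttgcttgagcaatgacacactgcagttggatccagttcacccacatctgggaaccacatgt
Has1, chr17:17855189-17855438, minus strand: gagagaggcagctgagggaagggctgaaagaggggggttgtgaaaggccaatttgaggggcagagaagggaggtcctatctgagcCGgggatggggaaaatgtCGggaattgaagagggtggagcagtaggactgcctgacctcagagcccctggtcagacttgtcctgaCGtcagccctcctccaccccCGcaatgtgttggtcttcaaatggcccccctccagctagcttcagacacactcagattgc
Cd34 held 6 CG dinucleotides, Fbln1 7, Dpt 3 and Has1 4. The median over 32851 promoters of the same length was 6, with quartiles of 2 and 16. All 4 lay within those quartiles. The promoter of the other Fbln1 start, not printed, held 14, also within them, so the count for Fbln1 depends on the start taken.

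Short motifs were searched on both strands of all the members' promoters of that length, as a description of the letters and not as sites. They were GAAANNGAA, the core of the interferon response element, which 7.13% of all promoters held, TGANTCA of AP-1, at 6.75%, TATAAA of the TATA box at 12.4% and GGAATG of TEAD factors at 12.6%. Matches of one motif were counted without regard to overlap with another. The promoters of Cd34, Fbln1, Dpt, Pi16 and Has1 held none of these. Dpp4 held the interferon element core 51 bases before the start, the TEAD motif at 118 and a TATA box at 227. One of the promoters of Ly6c1 held a TATA box at 143.

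**Figure D1:**
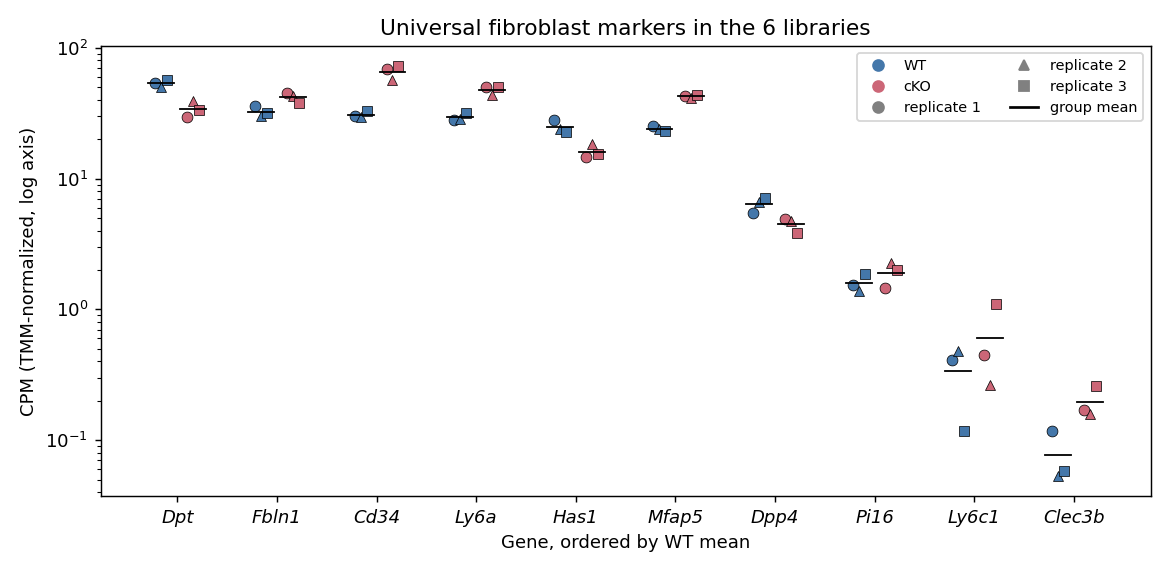
Level of each of the 10 members in each library, in TMM-normalized CPM on a log axis, with WT in blue, cKO in red, replicates by symbol and a bar at the group mean. Dpt, the highest member in WT by CPM at 53.5, is below Cd34 at 65.7 in cKO, and Clec3b lies below 0.26 CPM in all libraries.

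Cd34 encodes a sialomucin, a heavily glycosylated surface protein of connective tissue fibroblasts that is also carried by endothelium and blood progenitors. Its gene lies at chr1:194938820-194961280 on the plus strand of GRCm38. Cd34 was measured at 30.1, 29.3 and 32.6 CPM in WT and at 68.3, 56.8 and 72.0 CPM in cKO. Every cKO library was above every WT library, and the mean was 214% of WT. Cd34 rose by 1.10 on the log2 scale (95% CI 0.92 to 1.28, edgeR adjusted p = 2.78e-07), the largest difference among the members. Only 5.37% of tested genes differed by more.

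Cd34 is also an endothelial gene, so the endothelial markers are set beside it. Of 12 such markers, 4 were called higher and 1 lower, or 41.7% in either direction against 43.7% of all tested genes. Their median log2 difference was 0.05, and their summed level was 403 to 426 CPM in WT and 357 to 370 CPM in cKO. The lower sum went with Kdr, a receptor for VEGF, which averaged 182 CPM in WT and 99.4 CPM in cKO. Vwf, the von Willebrand factor, rose by 1.71 on the log2 scale and the receptor gene Flt1 by 0.58, while Egfl7 rose by 0.45. Pecam1, Cdh5, Tek, Tie1, Emcn and Erg were not called and had log2 differences between -0.13 and 0.13. The groups of Pecam1 did not overlap, with an edgeR adjusted p of 0.0577. Cldn5 was not called either, at 0.25, while Esam was called higher, at 0.28 (edgeR adjusted p = 0.0096). The part of the endothelial markers in the Cd34 difference was not tested.

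Ly6a encodes Sca-1, a protein anchored to the outer membrane that marks progenitors of blood and of connective tissue. It lies at chr15:74994877-74998031 on the minus strand. Ly6a was measured at 28.2, 28.4 and 31.4 CPM in WT and at 50.2, 43.5 and 49.9 CPM in cKO. The groups were well separated. The difference was 0.71 on the log2 scale (95% CI 0.55 to 0.86, edgeR adjusted p = 4.53e-06), a mean of 163% of WT.

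Ly6a is known to be induced by interferon, and interferon-induced genes moved with it. Of 10 such genes, 9 were called higher and none lower, against 21.9% of all tested genes called higher. Their median log2 difference was 1.44. Their summed level was 174 to 192 CPM in WT and 378 to 575 CPM in cKO. Isg15, a small protein attached to others after interferon, read 7.27, 8.13 and 5.91 CPM in WT and 55.8, 30.2 and 48.0 CPM in cKO. Usp18, which removes Isg15, rose by 2.15 on the log2 scale, Ifit3 by 1.93, Ifit1 by 1.84 and the surface protein gene Bst2 by 1.45. The part of the interferon-induced genes in the Ly6a difference was not tested.

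The Ly6 genes near Ly6a on chromosome 15 gave no common answer. Ly6c1, at chr15:75044018-75048830 on the minus strand, had 7, 9 and 2 reads in the WT libraries, against 8, 5 and 17 in cKO. Its groups overlapped, and no difference was detectable at this depth. Its transcript was 97.6% identical to that of Ly6c2 over 822 bases. Reads that match both are left out of the counts or placed by single base differences, so counts of this pair are uncertain. Ly6c2 had 1, 0 and 3 reads in WT, against 5, 7 and 7 in cKO, and was not tested. Ly6i, at 0.706 CPM in WT, had a log2 difference of -0.06 with a 95% CI of -0.88 to 0.77, too wide to exclude a change like that of Ly6a. Ly6e, an abundant relative that is also induced by interferon, rose from 138 to 187 CPM, by 0.44 on the log2 scale (edgeR adjusted p = 4.51e-05). Ly6a itself was 85.9% identical to Ly6i and 85.2% to Ly6f.

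The secreted matrix members split between the directions. Mfap5, a small glycoprotein of elastic microfibrils, lies at chr6:122505840-122529290 on the plus strand. Mfap5 was measured at 25.2, 24.1 and 23.1 CPM in WT and at 42.8, 41.4 and 43.2 CPM in cKO. It had the tightest groups of all members, with coefficients of variation of 4.37% in WT and 2.28% in cKO. Mfap5 rose by 0.82 on the log2 scale (95% CI 0.68 to 0.95, edgeR adjusted p = 3.05e-07), to 176% of WT.

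Its closest relative Mfap2, which forms the same microfibrils, was low, with 2.16 CPM on average in WT against 2.33 CPM in cKO. The log2 difference of Mfap2 was 0.12 with a 95% CI of -0.30 to 0.54. The upper bound of that interval is below the lower bound for Mfap5. Mfap4 shares the name but belongs to another protein family, and it rose from 14.0 to 23.4 CPM, by 0.74 on the log2 scale (edgeR adjusted p = 5.42e-05).

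Fbln1 encodes fibulin-1, a calcium-binding protein of basement membranes and elastic fibres, and lies at chr15:85205949-85286535 on the plus strand. Fbln1 was measured at 36.0, 29.9 and 31.6 CPM in WT and at 44.9, 42.4 and 38.0 CPM in cKO. The groups did not overlap, but the highest WT library, at 36.0, was close to the lowest cKO library, at 38.0. Fbln1 rose by 0.36 on the log2 scale (95% CI 0.19 to 0.54, edgeR adjusted p = 0.00234). This was the smallest called difference among the members, and 30.6% of tested genes differed by more.

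The other fibulins did not all move the same way. Fbln5, required for elastic fibre assembly, rose from 48.2 to 62.4 CPM, by 0.37 on the log2 scale (edgeR adjusted p = 0.000123). Fbln2 was the most abundant, with 1371 CPM in WT and 1496 CPM in cKO, and rose by 0.13 (edgeR adjusted p = 0.0412). Fbln7, at 0.738 CPM in WT, was not called, with a 95% CI of -0.49 to 0.81. The interval of Fbln1 overlapped those of Fbln2, Fbln5 and Fbln7. Efemp1, fibulin-3, went against them and fell by 0.67 on the log2 scale (edgeR adjusted p = 9.61e-05).

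Dpt encodes dermatopontin, which binds decorin and helps collagen fibrils to form. Its gene lies at chr1:164796640-164824270 on the plus strand. Dpt was measured at 53.7, 49.8 and 57.0 CPM in WT and at 29.5, 39.2 and 33.3 CPM in cKO. All cKO libraries were below all WT libraries, with replicate 2 the nearest to WT. Dpt fell by 0.65 on the log2 scale (95% CI -0.84 to -0.46, edgeR adjusted p = 5.56e-05), to 63.6% of WT. Dcn, the gene of its partner decorin, went the other way, from 266 to 502 CPM, and rose by 0.92 (edgeR adjusted p = 2.25e-08).

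Has1, one of the hyaluronan synthases, lies at chr17:17843323-17855205 on the minus strand. Has1 was measured at 28.0, 24.0 and 22.6 CPM in WT and at 14.6, 18.3 and 15.3 CPM in cKO. The groups were separate, and replicate 2 was again the cKO library nearest to WT. Has1 fell by 0.63 on the log2 scale (95% CI -0.84 to -0.41, edgeR adjusted p = 0.000245), to 64.6% of WT.

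All of the hyaluronan synthase genes were lower in cKO. Has2, the most abundant of them, was measured at 236, 229 and 232 CPM in WT and at 138, 200.5 and 139 CPM in cKO. Its WT libraries lay close together, while replicate 2 of cKO stood between WT and the other cKO libraries. Has2 fell by 0.54 on the log2 scale (edgeR adjusted p = 0.000962). Has3 fell by 0.80, from 2.98 to 1.69 CPM (edgeR adjusted p = 0.0177).

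Mesothelial cells, which cover the outer face of the oviduct, also make hyaluronan, so their markers are set beside these genes. Of 10 mesothelial markers, 5 were called lower and 1 higher, against 21.8% of all tested genes called lower and 21.9% higher. Their median log2 difference was -0.21, and their summed level was 283 to 292 CPM in WT and 212 to 217 CPM in cKO. Msln, the surface protein mesothelin, read 52.8, 55.7 and 55.5 CPM in WT and 30.9, 31.5 and 30.2 CPM in cKO. Muc16, a mesothelial mucin, fell by 1.31 on the log2 scale, the transcription factor gene Bnc1 by 0.90 and Upk1b by 0.86. Cldn15, a claudin gene, rose by 0.76. Upk3b, Wt1, Nkain4 and Gpm6a were not called, with log2 differences of -0.04, -0.03, 0.35 and 0.02. The part of the mesothelial markers in the Has1 difference was not tested.

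The members that define the adventitial state were low. Dpp4 encodes a peptidase of the cell surface that removes dipeptides from chemokines and hormones, and lies at chr2:62330073-62412231 on the minus strand. Dpp4 was measured at 5.50, 6.58 and 7.14 CPM in WT and at 4.89, 4.72 and 3.86 CPM in cKO. The groups did not overlap, but the gap between them, from 5.50 to 4.89, was smaller than the range of the WT libraries. Dpp4 fell by 0.51 on the log2 scale (95% CI -0.82 to -0.19, edgeR adjusted p = 0.0122), to 70.1% of WT. Without WT replicate 3 the log2 difference was -0.42 and the call was lost (edgeR adjusted p = 0.0578). Its relatives Dpp8 and Dpp9, which act inside the cell, were not called, with log2 differences of 0.06 and 0.07 and upper bounds of 0.15 and 0.18.

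Pi16 encodes a secreted peptidase inhibitor that names the adventitial type. It lies at chr17:29318877-29329413 on the plus strand. Pi16 was measured at 1.54, 1.39 and 1.87 CPM in WT and at 1.46, 2.28 and 1.99 CPM in cKO, from 26 to 43 counts per library. The groups overlapped. The log2 difference was 0.26 with a 95% CI of -0.25 to 0.78 (edgeR adjusted p = 0.403). That interval still holds a rise of the size seen in Ly6a. Its lower bound is above the fall estimated for Dpp4, but it overlaps the Dpp4 interval of -0.82 to -0.19.

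Clec3b, the gene of tetranectin, a plasminogen-binding lectin, lies at chr9:123150950-123157430 on the plus strand. It had 2, 1 and 1 reads in the WT libraries, against 3, 3 and 4 in cKO. All but 1 library were at or under the floor of 3 counts, so no fold is given. Clec3b was thus all but undetected in these cells, while Ly6c1 was above the floor in 5 of 6 libraries but too low to be tested.

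**Figure D2:**
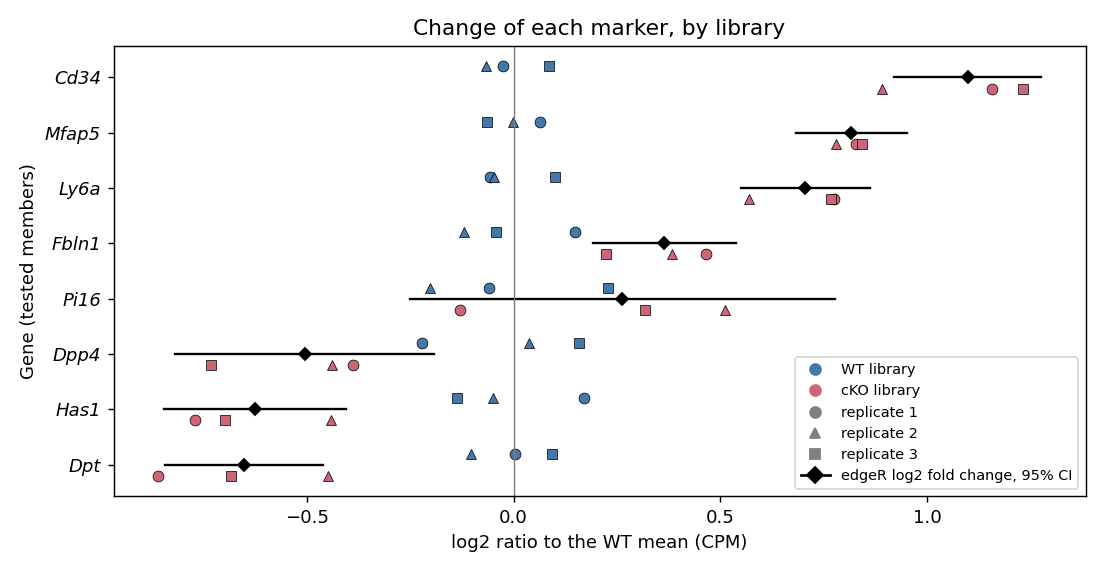
Log2 ratio of each library's CPM to the WT mean for the 8 tested members, with WT libraries in blue and cKO in red, and the edgeR log2 fold change with its 95% confidence interval as a black diamond and line. Cd34 at 1.10, Mfap5 at 0.82, Ly6a at 0.71 and Fbln1 at 0.36 lie to the right of 0, Dpp4 at -0.51, Has1 at -0.63 and Dpt at -0.65 to the left, and the interval of Pi16 spans 0.

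Sizes differed within each direction. The interval of Cd34 lay wholly above that of Ly6a and that of Fbln1, while it overlapped that of Mfap5 between 0.92 and 0.95. Mfap5 and Ly6a overlapped each other, and both lay above Fbln1. Among the members that fell, the intervals of Dpt, Has1 and Dpp4 overlapped throughout. Differences between members were not tested beyond these intervals.

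Per kb of exon, on which levels of different genes can be compared, the order of the members changed at the top. In WT, Dpt was highest with 31.0 ± 2.10 CPM per kb (SD, n = 3), followed by Ly6a with 24.3 ± 1.51, Fbln1 with 7.44 ± 0.724 and Mfap5 with 6.71 ± 0.294. Has1 with 5.50 ± 0.614, Cd34 with 4.21 ± 0.232 and Dpp4 with 1.01 ± 0.132 followed, and Pi16, Ly6c1 and Clec3b were below 0.5 CPM per kb. Fbln1 and Mfap5 had overlapping ranges over the 3 libraries, as had Ly6c1 and Clec3b, and all other neighbours were apart.

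In cKO, Ly6a was highest with 39.7 ± 3.15 CPM per kb (SD, n = 3), ahead of Dpt with 19.7 ± 2.84, Mfap5 with 11.8 ± 0.270, Fbln1 with 9.56 ± 0.802 and Cd34 with 9.01 ± 1.09. Has1 came next with 3.55 ± 0.438 and Dpp4 with 0.711 ± 0.0875. The ranges of Fbln1 and Cd34 overlapped, and Pi16 overlapped Ly6c1, which overlapped Clec3b. Ly6a and Dpt had thus exchanged places, each time with ranges apart, and Cd34 had passed Has1. The lengths are of all annotated exons of a gene, so the level of a gene with exons that these cells do not use is understated.

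The cKO libraries differed in how far they stood from WT. Replicate 2 was the nearest to the WT mean in 5 of the 7 called members, Cd34, Ly6a, Mfap5, Dpt and Has1. In Fbln1 replicate 3 was nearest and in Dpp4 replicate 1. Among 6722 called genes with a WT count, replicate 2 was nearest in 56.6%, replicate 1 in 21.9% and replicate 3 in 21.5%, so the members followed the table at large. Replicate 2 also had the highest Pbrm1 of the cKO libraries, 50.7 CPM, and the mitochondrial share closest to WT, 7.81%. Whether these bear on the difference was not tested.

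**Figure D3:**
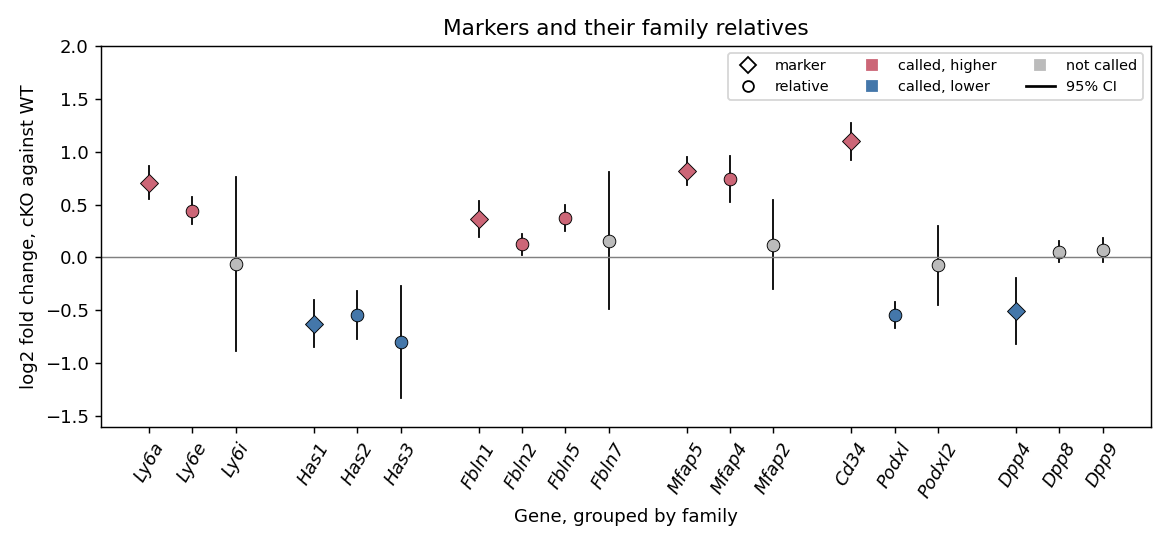
The edgeR log2 fold change with 95% confidence interval for 6 members (diamonds) and their tested family relatives (circles), coloured by call. Mfap4, of another protein family, is drawn with Mfap5 because of its name. All 3 hyaluronan synthases lie below 0, Fbln1, Fbln2 and Fbln5 lie above 0 with Fbln7 not called, and Podxl at -0.54 lies opposite to Cd34 at 1.10.

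The 14 relatives of the members, most of them described above, held 4 genes called higher, 3 called lower and 6 not called, with a median log2 difference of 0.07, and Ly6c2 was not tested. Mfap4, related to Mfap5 by name only, was counted among those called higher. Calls in either direction thus took 53.8% of tested relatives, against 43.7% of all tested genes. Cd34 and its relative Podxl moved in opposite directions. Podxl, podocalyxin, another sialomucin of vessels and mesothelium, fell from 53.2 to 36.5 CPM, by 0.54 on the log2 scale (edgeR adjusted p = 5.23e-06). Podxl2 was not called, at -0.07 with a 95% CI of -0.45 to 0.30. Among the listed relatives of Has1 and Fbln1 none was called against the member, but Efemp1, listed with the adventitial genes, was called against Fbln1.

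Other genes of the adventitial fibroblasts were as divided as the members. Of 16 such genes, 6 were called higher and 5 lower, or 68.75% in either direction against 43.7% of all tested genes. Their median log2 difference was 0.11, and their summed level overlapped between WT at 3489 to 3639 CPM and cKO at 3437 to 3585 CPM. Cd248, the surface protein endosialin, rose from 17.0 to 32.3 CPM, by 0.92 on the log2 scale. Tnxb, a tenascin of loose connective tissue, rose by 0.84, the complement regulator gene Cd55 by 0.71, and the receptor kinase gene Axl, the most abundant of the list per kb, by 0.14. Efhd1 fell from 3.07 to 1.43 CPM, by 1.11 on the log2 scale, and the fibronectin gene Fn1 fell by 0.33.

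Genes of the Col15a1 type of fibroblast were called higher in 3 of 9 and lower in none, or 33.3% against 43.7% of all tested genes. Their median log2 difference was 0.10. Col15a1 itself, a basement membrane collagen, rose from 64.8 to 169.8 CPM, by 1.39 on the log2 scale (edgeR adjusted p = 1.04e-08). Lpl, lipoprotein lipase, rose by 0.71 and the growth factor gene Bmp4 by 0.28. The groups of Bmp4 overlapped and its edgeR adjusted p was 0.0451, and the list had 2 calls in place of 3 with DESeq2 or limma-voom and 2 to 4 with 1 library left out. Col4a1 was unmoved within its error, with a log2 difference of 0.00 and a 95% CI of -0.16 to 0.17.

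Genes shared by most fibroblasts went mainly one way. Of 16, 14 were called higher and 1 lower, against 21.9% of all tested genes called higher and 21.8% lower. Their median log2 difference was 0.63, and their summed level was 8309 to 9081 CPM in WT and 12098.5 to 12427 CPM in cKO. Pdgfra read 740.1, 760.9 and 739.0 CPM in WT and 1351, 1275 and 1332 CPM in cKO, a rise of 0.82 on the log2 scale. Col14a1, a collagen on fibril surfaces, rose by 1.47, Col3a1 by 0.86 and the surface protease gene Fap by 0.86. Col1a1, the most abundant per kb, was not called, at 0.08 with a 95% CI of -0.10 to 0.26, and Thy1, a surface glycoprotein, was the gene that fell, by 0.31. Dpt, Has1 and Dpp4 therefore fell while this list rose, and Cd34, Mfap5, Ly6a and Fbln1 moved with it.

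**Figure D4:**
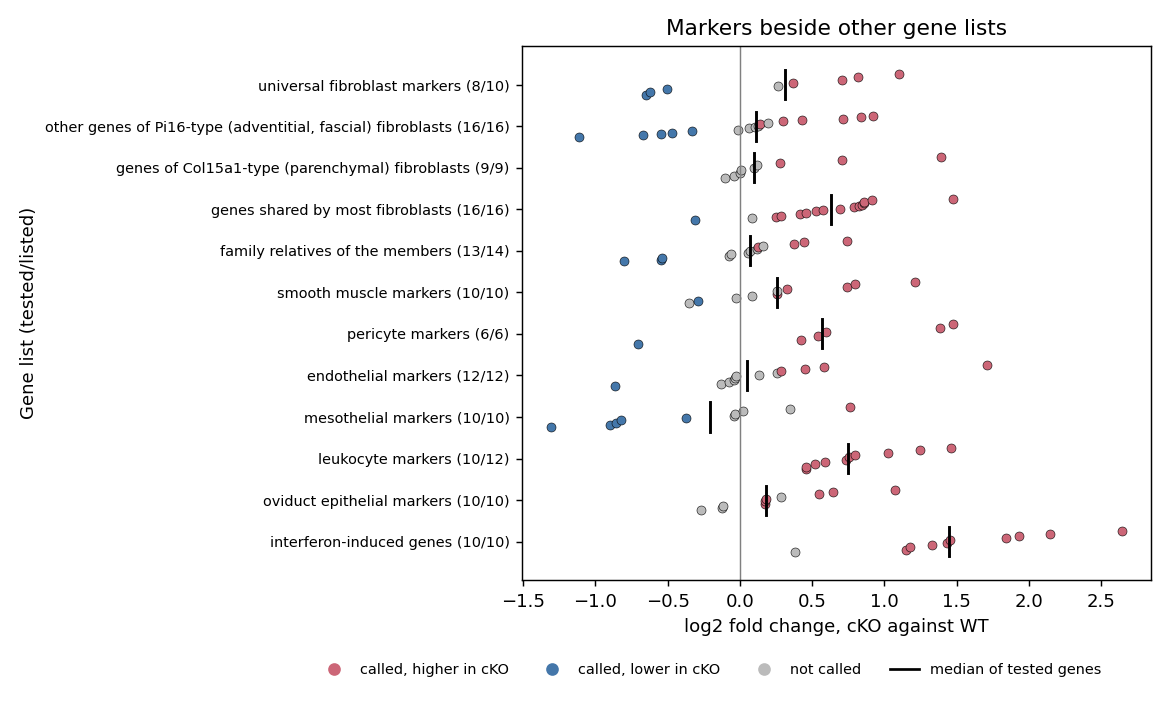
Log2 fold change, cKO against WT, of every tested gene of each list (tested and listed numbers in parentheses), coloured by call, with a black bar at the list's median. The members range from -0.65 to 1.10 on both sides of 0, whereas the interferon-induced genes have a median of 1.44 and the genes shared by most fibroblasts one of 0.63.

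Markers of other cells that such a digest could hold were called to different extents, against 43.7% of all tested genes called in either direction. Smooth muscle markers were called higher in 5 of 10 and lower in 1, with a median log2 difference of 0.26 and summed levels of 3498 to 3570 CPM in WT and 4272 to 4769 CPM in cKO. Des, desmin, rose by 1.21 on the log2 scale, Lmod1 by 0.80, the smooth muscle myosin gene Myh11 by 0.74 and Tagln by 0.32. Smtn was the marker that fell, by 0.29 (edgeR adjusted p = 0.00169). Myocd, Cnn1, Actg2 and Synpo2 were not called, with log2 differences of -0.35, -0.03, 0.08 and 0.26. Of 6 pericyte markers, 5 were called higher and 1 lower, with a median of 0.57, and their sum was 440 to 473.5 CPM in WT and 531 to 632 CPM in cKO. The potassium channel genes Kcnj8 and Abcc9 rose by 1.47 and 1.38, Notch3 by 0.59 and Pdgfrb by 0.42, and Cspg4, the proteoglycan NG2, fell by 0.70.

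Leukocyte markers were called higher in 10 of 12 and lower in none, with a median log2 difference of 0.75 and sums of 732 to 784 CPM in WT and 1076 to 1168 CPM in cKO. Cd52 rose by 1.46 on the log2 scale, the complement gene C1qa by 1.25, Ptprc, the common leukocyte antigen, by 1.02, Fcer1g by 0.80 and the lysozyme gene Lyz2 by 0.46. The B cell marker Ms4a1 was at 0 counts in every library and the T cell marker Cd3e at 0 to 5 counts, and neither was tested. Of 10 oviduct epithelial markers, 6 were called higher and none lower, with a median of 0.18 and sums of 999.9 to 1087 CPM in WT and 1159 to 1294 CPM in cKO. Epcam rose by 1.07, the claudin gene Cldn4 by 0.64, the cadherin gene Cdh1 by 0.54, Krt8 by 0.18 and Krt18 by 0.17. Krt7, Pax8, Foxj1 and Cldn3 were not called, with log2 differences of -0.12, -0.12, -0.27 and 0.29. Ly6a and Cd34 are also carried by some leukocytes and their precursors, and the part of these lists in the members' differences was not tested.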

How the data were processed

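The authors deposited a table of raw read counts per gene with 6 library columns. Its header names featureCounts 1.6.4, run on the exons of GENCODE M18 with the reverse-strand setting, without reads that match several places or several genes of 1 strand. The submitters' processing notes name cutadapt, HISAT2 and GRCm38.p5. Counting by strand keeps antisense genes apart. In GENCODE M21, no member shared exon bases with another gene of its strand. The overlap was not checked in M18, on which the reads were counted. The annotations differ for Pi16, with 6364 exon bases in M21 against 3987 in the deposited table. Symbols came from GENCODE M21 (99.7% of 54232 genes matched), and coordinates are those of the deposited table. No column was left unassigned.

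Testing used R 4.3.3 and the two-sided quasi-likelihood F-test of edgeR 4.0.16 (TMM normalization, filterByExpr by group, group as the only term), with Benjamini-Hochberg adjustment over 15376 genes and a threshold of 0.05. CPM use the same factors. The study's methods name DESeq2, which was an alternative here. On simulated counts of cKO against WT, edgeR found 188 of the 200 genes that had been changed, out of 15187 tested, along with 8 false calls, and made 0 calls among 15193 genes when none was changed. The changed genes left out those with low counts and were far fewer than the 6723 called in the data. Recovery was not measured at low counts or for differences as small as that of Fbln1. Replicates of a group differed by more than sampling noise (chi-square per gene 1.31 to 1.60 at low counts), and all 6 libraries were kept.

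The members and all gene lists were chosen with earlier results of these data known. All 10 members, Pbrm1 and all relatives are named, and from each other list the genes with the largest called differences, up to 4, and the most abundant per kb. Further genes of the lists (Pecam1, Cdh5, Tek, Tie1, Emcn, Erg, Cldn5, Esam, Upk3b, Wt1, Nkain4, Gpm6a, Cldn15, Efemp1, Fn1, Pdgfra, Thy1, Acta2, Smtn, Myocd, Cnn1, Actg2, Synpo2, Krt7, Pax8, Foxj1, Cldn3, Ms4a1 and Cd3e) were named after their values were seen. Alternatives were DESeq2 1.42.0, limma-voom (limma 3.58.1), other scalings, other filters, a replicate block, stricter thresholds and leaving out each library. One further promoter motif is not reported here.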

Additional observations from a re-analysis of the deposited data

How the results depend on the processing

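Neither Pbrm1 nor any of the 8 tested members changed direction under the alternatives run; for genes of the lists the alternatives give counts of calls without direction. The 4 members called higher and the 3 called lower kept their calls with DESeq2, limma-voom, median-ratio, upper-quartile or library-size scaling, no filter and a minimum of 10 counts in every library. Dpp4, with an edgeR adjusted p of 0.0122, lost its call where an adjusted p under 0.01 was required. It also lost its call without WT replicate 3, at a log2 difference of -0.42, and its adjusted p over all alternatives ran from 0.00269 to 0.0578. Over the alternatives the log2 difference ran from 1.03 to 1.20 in Cd34, 0.78 to 0.85 in Mfap5, 0.67 to 0.78 in Ly6a, 0.31 to 0.44 in Fbln1, -0.77 to -0.55 in Dpt and -0.73 to -0.54 in Has1. Pi16 was not called in any of them, with a log2 difference from 0.11 to 0.43. With no filter, the adjusted p of Ly6c1 was 0.323 and that of Clec3b 0.437.

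With a log2 difference over 1 also required, Cd34 was the 1 member still called higher, 0 were called lower, and over all genes 557 were called higher and 441 lower. Calls in the lists then numbered 1 each for adventitial, Col15a1-type and shared fibroblast genes and for smooth muscle, endothelial, mesothelial and epithelial markers, 2 for pericyte, 3 for leukocyte markers and 0 for relatives, while the interferon-induced genes kept a count of 9. Of the epithelial markers, 3 were called at an adjusted p under 0.01, and 3 to 7 with each library left out in turn, the 3 being without WT replicate 1.

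Replicate numbers did not pair the libraries: the correlations of same-numbered deviations were -0.05, 0.08 and 0.19. With a replicate block, 6908 genes were called, 6617 of them shared with the 6723 without it, and the block changed no member's call. Over all genes DESeq2 called 5307, and leaving out 1 library gave 5532 to 7054, the most without cKO replicate 2. No scaling moved the median log2 difference of all genes beyond 0.0174. Depth limits Clec3b and Ly6c1, and with 3 libraries a group the interval of Pi16 leaves its direction unresolved.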
